A study of Homo sapiens with 4 samples.

Results

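The AP-1 transcription factors and a few related stress-response factors were followed across 4 RNA sequencing libraries. The 10 genes FOS, FOSB, FOSL1, FOSL2, JUN, JUNB, JUND, ATF3, BATF and MAFF were chosen by name, with earlier results of these data known. Their counts set against all genes are therefore a description, not an independent check. All 10 were found, each as 1 row, among the 35979 gene symbols of the tables. A mean normalized count of at least 20 over the libraries was passed by 9 of the 10, as it was by 14940 symbols in all. BATF was the exception, with 0 reads in every library.

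The cells were NCI-H1048, a human small cell lung cancer line of the tuft cell-like kind, which relies on the transcription factor POU2F3. COLCA2 is studied there as a co-activator. Polyadenylated RNA came from cells given a guide RNA (gRNA) against COLCA2 (labelled COLCA2 knockout; 2 libraries, each with a different guide), a gRNA against POU2F3 (labelled POU2F3 knockout; 1 library) or a non-targeting gRNA (labelled WT; 1 library). They are called COLCA2 guide 1, COLCA2 guide 2, the POU2F3 guide and the control. The time after guide delivery, and whether each library came from a pool or from 1 clone, are not given in the sources used here, and no other treatment is recorded.

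AP-1 is a dimer of basic leucine zipper (bZIP) proteins. JUN proteins pair with each other or with FOS proteins and bind the TPA response element (TRE), TGANTCA, or the cAMP response element (CRE), TGACGTCA. FOS, FOSB, JUN, JUNB and ATF3 are immediate-early genes, transcribed within minutes of a growth factor or stress signal carried by MAP kinases, whereas FOSL1 and FOSL2 come later and their proteins last longer. In lung and other epithelial cancers AP-1 is known for its part in growth, migration and invasion.

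The libraries held 24668649 reads in genes with COLCA2 guide 1, 21587741 with COLCA2 guide 2, 29632382 with the POU2F3 guide and 25435970 with the non-targeting guide. Mitochondrial transcripts took between 3.96% and 4.47% of the signal. Over the genes past the minimum, the control stood apart from the others, with a Pearson r across genes of 0.940 to 0.950, against 0.981 to 0.984 among the other 3; genes are not independent replicates. It is also the control of every ratio to it, so those ratios share its error. In the check of the labels, POU2F3 stood at 14602 in the control, 1449 with the POU2F3 guide, and 3677 and 2351 with COLCA2 guides 1 and 2. COLCA2 stood at 5585, 1393, 3119 and 3541 in the same order. Both targeted genes were thus below the control level in all 3 libraries, though a transcript level does not measure how much of the coding sequence was disrupted. Exons of COLCA1 on the other strand, not analysed here, overlap 436 of the 2059 bp of COLCA2 exon. Of 6 tuft markers past the minimum, 5 were at least 2-fold lower in all 3 libraries, where 1.5% of all genes were. The summed level of the 10 listed was 40704 in the control and 9684 to 14166 in the others. Both the 5 and the sum include the targeted gene POU2F3 itself, and the sum also SOX9, at 17847.5 in the control. Among the 4 epithelial markers, EPCAM stood at 3986 in the control and between 2463 and 3408 in the others, whereas KRT8, KRT18 and CDH1 were at least 2-fold higher in all 3 (KRT8 2529.6 in the control and 10023 to 14980.4 in the others). Of 5 neuroendocrine markers 2 passed the minimum, and 1 of these was at least 2-fold lower in all 3 libraries, while CHGA had at most 3 reads in any library. Of 5 leukocyte markers 1 passed the minimum and lay within 2-fold of the control, while CD3E had no reads.

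Promoter sequences from RefSeq (GRCh38.p14) were available for 9 of the 10 members, as 11 windows from 250 bases before to 50 after a transcription start. FOSL1 is named only. The windows were searched on both strands for the TRE, for the CRE, for the looser form TGACNTCA, which includes the CRE, for the octamer ATGCAAAT bound by POU factors such as POU2F3, and for the CArG box bound by serum response factor. Of all 35116 windows in that table, 7.71% held a TRE, 1.85% a CRE, 7.72% the looser form, 1.77% an octamer and 1.29% a CArG box. Among the members the TRE was found in FOSL2, the CRE in MAFF and JUND, the looser form besides in JUN and ATF3, and the octamer in JUND. The CArG box was in none of the windows, which says only that those letters are not within them. These matches describe the sequence and are not measured binding sites.

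FOSL2 is printed as the member with the highest fold among those with a window, FOS as the one furthest apart between the targets, JUND because it alone holds the octamer, and the shorter runs to show the AP-1 type matches themselves. Each sequence reads 5′ to 3′ on the strand of its gene, with matches in capitals. The longer runs lie before the RefSeq start and outside exons annotated in GENCODE release 29. That of FOSL2 lies within the gene as GENCODE gives it, which begins at 28392448. The FOSL2 stretch is chr2:28392608-28392801 on the plus strand and the FOSL2 match, which lies just after the RefSeq start, is within chr2:28392851-28392880. The FOS stretch is chr14:75278578-75278773 (plus strand) and the JUND stretch chr19:18281623-18281872 (minus strand). The matches of MAFF, JUN and ATF3 are within chr22:38201929-38201958 (plus), chr1:58784096-58784125 (minus) and chr1:212565273-212565302 (plus).
FOSL2 upstream: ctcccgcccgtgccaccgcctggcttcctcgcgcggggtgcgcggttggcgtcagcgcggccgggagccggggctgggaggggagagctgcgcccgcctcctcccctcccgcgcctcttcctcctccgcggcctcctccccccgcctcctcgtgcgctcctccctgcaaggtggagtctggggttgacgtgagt
FOSL2 TRE: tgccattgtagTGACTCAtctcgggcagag
FOS upstream: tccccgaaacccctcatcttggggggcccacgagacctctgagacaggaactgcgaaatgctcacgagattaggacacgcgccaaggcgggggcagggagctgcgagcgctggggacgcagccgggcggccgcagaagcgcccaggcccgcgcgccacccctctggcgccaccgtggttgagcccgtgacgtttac
JUND upstream, CRE and octamer: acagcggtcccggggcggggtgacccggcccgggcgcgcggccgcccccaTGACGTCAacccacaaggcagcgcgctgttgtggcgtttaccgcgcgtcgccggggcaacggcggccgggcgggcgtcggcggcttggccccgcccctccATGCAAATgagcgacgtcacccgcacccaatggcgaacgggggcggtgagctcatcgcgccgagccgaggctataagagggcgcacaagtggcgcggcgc
MAFF CRE: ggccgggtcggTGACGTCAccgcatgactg
JUN looser CRE: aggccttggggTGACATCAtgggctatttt
ATF3 looser CRE: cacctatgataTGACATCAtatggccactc

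The first question was how the members differed from the control after each guide. FOSL1 and FOSL2, the late FOS-family genes, were the members furthest above it in every library, followed by MAFF with the COLCA2 guides and by FOSB with the POU2F3 guide, while JUN was slightly below it in all 3. With the POU2F3 guide 5 of the 9 measured members (FOSB, FOSL1, FOSL2, JUNB and MAFF) were at least 2-fold higher, where 6.73% of all genes were. With both COLCA2 guides 3 of 9 (FOSL1, FOSL2 and MAFF) were, where 5.79% of all genes were, and the same 3 passed in all 3 libraries, where 4.89% of all genes did. No member was at least 2-fold lower with the POU2F3 guide, with both COLCA2 guides or in all 3 libraries, where 3.05%, 2.02% and 1.5% of all genes were. Taken singly, COLCA2 guide 1 had 3 members at least 2-fold higher, where 6.44% of all genes were, and COLCA2 guide 2 had 4, FOSB being added, where 7.25% were. Neither had a member at least 2-fold lower, where 3.19% and 3.64% of all genes were. The members' median log2 ratio was 1.01 for the POU2F3 guide and 0.78 for the COLCA2 mean, beside medians of -0.0037 and -0.0086 over all genes.

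With 1 library for the POU2F3 guide and 1 control, these differences had no replicate check and no test was made of them as conditions. The only replicate error is the spread between the COLCA2 guides, which joins guide, culture and library differences. For the members it was small: the guides differed by between 0.0070 and 0.31 on the log2 scale, with a median of 0.11, beside a median of 0.13 over all genes. None of the 9 differed by 2-fold between the guides, where 2.22% of all genes did. In bulk RNA, more cells expressing a gene and more RNA per cell cannot be told apart. Log2 ratios are of the normalized count plus 1. Folds are plain ratios of normalized counts, and their 95% exact intervals cover counting error only.

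**Figure D1:**
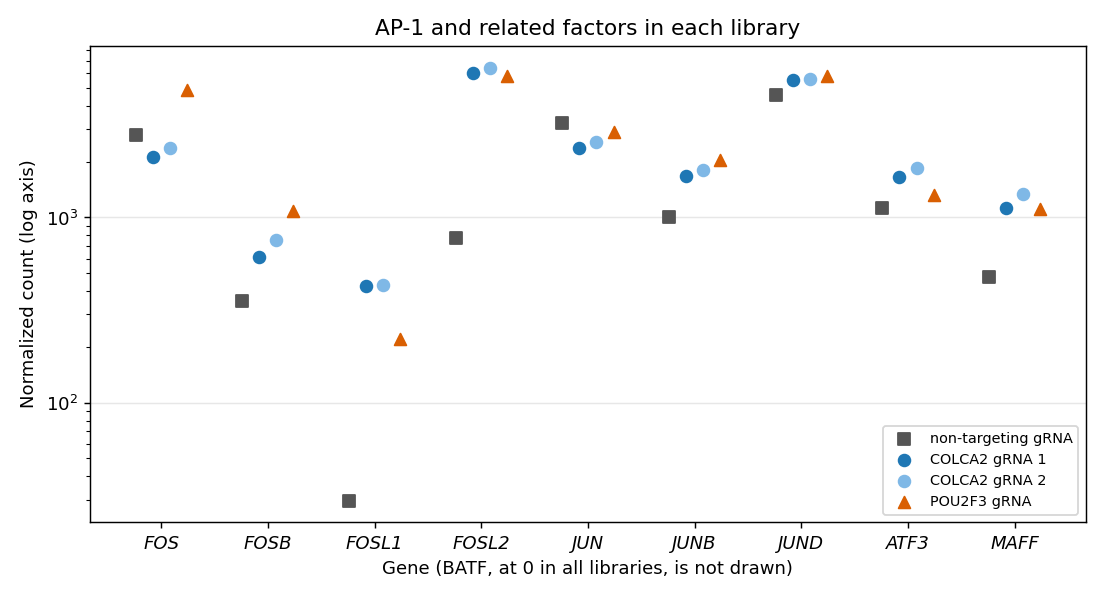
Normalized count (log axis) of the 9 measured members in the control (squares), COLCA2 guides 1 and 2 (dark and light circles) and the POU2F3 guide library (triangles); each point is 1 library. FOSL2 lies at 779 in the control and at 5814 or more in the other 3, whereas the JUND points lie between 4584 and 5823.

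FOSL2 (ENSG00000075426), which encodes the AP-1 subunit FRA-2, lies on chromosome 2 at 28392448 to 28417312 (GRCh38, plus strand). Its normalized count was 779 in the control, 6014 with COLCA2 guide 1, 6447 with COLCA2 guide 2 and 5814 with the POU2F3 guide. The 3 libraries of targeted cells thus lay within a narrow band far above the control. The fold was 7.72 (95% interval 7.17 to 8.32) and 8.27 (7.69 to 8.92) with the COLCA2 guides and 7.46 (6.94 to 8.03) with the POU2F3 guide. The log2 ratio was 2.95 and 3.05 with the COLCA2 guides, with an SD of 0.071 (n = 2). In turn, 1.33% of all genes with COLCA2 guide 1, 1.41% with COLCA2 guide 2 and 1.14% with the POU2F3 guide had a log2 ratio as high or higher.

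FOSL1 (ENSG00000175592), which encodes the related subunit FRA-1 and is a classic target of sustained ERK signalling, lies on the minus strand of chromosome 11 at 65892049 to 65900573. It was the least abundant measured member of the control, also per kilobase, with 29.6 from 31 reads. It stood at 424 with COLCA2 guide 1, 430.4 with COLCA2 guide 2 and 219.9 with the POU2F3 guide. Both COLCA2 libraries lay well above the POU2F3 guide library, which in turn lay well above the control. The fold was 14.3 (95% interval 9.93 to 21.4) and 14.5 (10.1 to 21.7) with the COLCA2 guides and 7.43 (5.11 to 11.2) with the POU2F3 guide, the wide intervals coming from the few control reads. The mean log2 ratio with the COLCA2 guides was 3.81 ± 0.015 (SD, n = 2).

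FOSB (ENSG00000125740), an immediate-early gene, lies on chromosome 19 at 45467995 to 45475179 (plus strand). It stood at 355 in the control, 609 and 753 with COLCA2 guides 1 and 2, and 1079 with the POU2F3 guide. The control was lowest and the POU2F3 guide library highest. The fold was 1.71 with COLCA2 guide 1, 2.12 (95% interval 1.86 to 2.41) with COLCA2 guide 2 and 3.04 (2.71 to 3.42) with the POU2F3 guide, so the guides fell on either side of the 2-fold threshold. FOSB also had the largest difference between the guides of any member.

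FOS (ENSG00000170345), the founding immediate-early gene of the family, lies on chromosome 14 at 75278774 to 75282230 (plus strand). It stood at 2791 in the control, 2125 and 2367 with COLCA2 guides 1 and 2, and 4875 with the POU2F3 guide. It was the only member on opposite sides of the control, below it with both COLCA2 guides and above it with the POU2F3 guide. The fold was 0.761 (95% interval 0.719 to 0.806) and 0.848 (0.801 to 0.898) with the COLCA2 guides and 1.75 (1.67 to 1.83) with the POU2F3 guide.

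**Figure D2:**
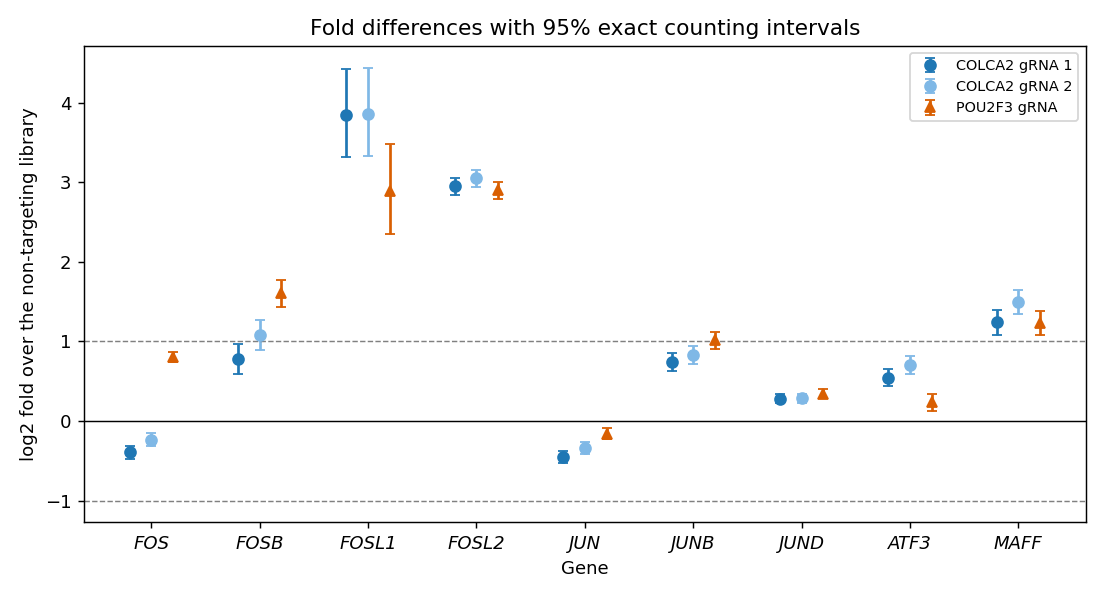
Log2 fold of each measured member over the control, with COLCA2 guides 1 and 2 (dark and light circles) and the POU2F3 guide (triangles); bars are 95% exact intervals for counting error, and dashed lines mark 2-fold. FOSL1, FOSL2 and MAFF lie above the upper line in all 3 libraries, and FOS lies on both sides of 0.

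The JUN family, the obligate partners of FOS proteins, differed less. JUN (ENSG00000177606; chromosome 1 at 58780788 to 58784327, minus strand), a strong activator and a nuclear substrate of the JNK kinases, stood at 3241 in the control, 2373 and 2557 with COLCA2 guides 1 and 2, and 2905 with the POU2F3 guide. The control was the highest of the 4. The fold was 0.732 (95% interval 0.694 to 0.772) and 0.789 (0.747 to 0.833) with the COLCA2 guides and 0.896 (0.855 to 0.940) with the POU2F3 guide. JUND (ENSG00000130522; chromosome 19 at 18279760 to 18281622, minus strand), the member expressed most steadily in resting cells, stood at 4584, 5558, 5585 and 5823 in the same order. Its fold was between 1.21 and 1.27 in the 3 libraries, and the COLCA2 guides differed by 0.0070 on the log2 scale.

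JUNB (ENSG00000171223; chromosome 19 at 12791496 to 12793315, plus strand), a weaker activator that can hold back JUN, stood at 1006 in the control, 1675 and 1793 with COLCA2 guides 1 and 2, and 2033 with the POU2F3 guide. The control was the lowest. The fold was 1.66 and 1.78 (95% interval 1.65 to 1.93 for the latter) with the COLCA2 guides and 2.02 (1.88 to 2.17) with the POU2F3 guide, which only just passed 2-fold and did not with libraries scaled to equal totals (log2 ratio 0.98). Of the 1820 bp of JUNB exon, 259 bp overlap exons of HOOK2 on the other strand, and the library kit does not mark the strand, so reads from the shared stretch cannot be told apart. HOOK2 stood at 1639.6 in the control and between 1384 and 1623 in the others. The part of HOOK2 reads in the JUNB values was not tested.

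MAFF (ENSG00000185022; chromosome 22 at 38200767 to 38216511, plus strand), a small MAF protein without an activation domain that pairs with other bZIP factors, stood at 476 in the control, 1122 and 1339.5 with COLCA2 guides 1 and 2, and 1114 with the POU2F3 guide. The fold was 2.36 (95% interval 2.12 to 2.63) and 2.82 (2.53 to 3.14) with the COLCA2 guides and 2.34 (2.11 to 2.60) with the POU2F3 guide. The targeted libraries lay between 1114 and 1339.5, all above the control. ATF3 (ENSG00000162772; chromosome 1 at 212565334 to 212620777, plus strand), a stress-induced factor that often represses, stood at 1131 in the control, 1647 and 1841 with COLCA2 guides 1 and 2, and 1329.5 with the POU2F3 guide. Its fold was 1.46 (95% interval 1.35 to 1.57) and 1.63 (1.51 to 1.76) with the COLCA2 guides and 1.18 (1.09 to 1.27) with the POU2F3 guide, so the control was lowest and the COLCA2 guides highest. BATF (ENSG00000156127; chromosome 14 at 75522425 to 75547015, plus strand), known from lymphocytes, had 0 reads in each library, which at 3 reads allows a normalized count of up to 2.52 with the POU2F3 guide, 2.86 in the control, 3.11 with COLCA2 guide 1 and 3.53 with COLCA2 guide 2.

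The recovered whole reads of all 14940 genes were also put through edgeR's quasi-likelihood model, taking Benjamini-Hochberg adjusted p-values below 0.05 as called. The only spread it can estimate, with 1 residual degree of freedom, is that between the COLCA2 guides. It assumes that the single libraries vary alike, and so sets these libraries, not the conditions, against each other. It called 1858 genes with the POU2F3 guide, 2831 with the COLCA2 guides and 51 between them. With the POU2F3 guide it called 6 of 9 members higher, FOS joining the 5 above, and none lower, where 8.45% of all genes were called higher and 3.98% lower. At an unadjusted p below 0.05 it had 7 members higher and 0 lower, where 15.7% of all genes were higher and 11% lower. With the COLCA2 guides it called 6 members higher (FOSL1, FOSL2, MAFF, FOSB, JUNB and ATF3), where 11.4% of all genes were, and JUN lower, where 7.51% were. At an unadjusted p below 0.05 these were 7 higher and 2 lower (JUN and FOS), where 17.9% and 14.8% of all genes were. FOS, lower with both COLCA2 guides, was not called there (log2 fold change -0.31, adjusted p = 0.0784). The edgeR log2 fold change of FOSL2 was 2.91 with the POU2F3 guide (adjusted p = 5.91e-05) and 2.9998 with the COLCA2 guides (adjusted p = 2.88e-05). For JUN edgeR gave -0.39 with the COLCA2 guides (adjusted p = 0.0314), lower with both guides, and -0.15 with the POU2F3 guide (adjusted p = 0.470). JUND missed the edgeR threshold in both, at 0.36 (adjusted p = 0.0577) and 0.28 (adjusted p = 0.0604).

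The second question was whether the members differed between the targets, a comparison that leaves out the control. FOS was the only member at least 2-fold apart from both COLCA2 libraries. It was higher with the POU2F3 guide by 2.29-fold (95% interval 2.18 to 2.41) than with COLCA2 guide 1 and by 2.06-fold (1.96 to 2.17) than with COLCA2 guide 2. That is 1 of 9 members, where 0.442% of all genes were at least 2-fold higher. No member was at least 2-fold lower, where 0.924% of all genes were. In edgeR FOS was likewise the only member called between the targets, with a log2 fold change of 1.13 (adjusted p = 0.0147), where 0.107% of all genes were called higher and 0.234% lower. At an unadjusted p below 0.05 it had 5 members, FOS, FOSB and JUN higher and FOSL1 and ATF3 lower, where 6.89% of all genes were higher and 6.75% lower.

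FOSL1 went the other way. With the POU2F3 guide it stood at 0.519 of the COLCA2 guide 1 level (95% interval 0.442 to 0.607) and at 0.511 of the COLCA2 guide 2 level (0.434 to 0.600), just short of 2-fold. FOSB was higher with the POU2F3 guide, by 1.77-fold and 1.43-fold, and ATF3 was lower, at 0.807 and 0.722 of the levels with COLCA2 guides 1 and 2. For these 3 genes the edgeR adjusted p was 0.116, 0.160 and 0.241, so the differences did not pass its threshold. FOSL2 and JUND were the closest, FOSL2 at 0.967 and 0.902 (95% interval 0.870 to 0.935 for the latter) of the levels with COLCA2 guides 1 and 2 and JUND at 1.05 and 1.04.

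Levels of different genes were compared per kilobase of the longest coding transcript in GENCODE release 29, which was 6708 bases for FOSL2, 3775 for FOSB, 2158 for FOS and 1669 for FOSL1. On this scale FOS was 85.0% of the summed FOS-family level in the control, FOSL2 7.64%, FOSB 6.19% and FOSL1 1.17%. With COLCA2 guides 1 and 2, FOS made up 42.9% and 43.6%, FOSL2 39.0% and 38.2%, and FOSL1 11.1% and 10.3%. With the POU2F3 guide, FOS made up 63.8%, FOSL2 24.5% and FOSL1 3.72%. The summed FOS-family level per kilobase was 1521 in the control, 2297 and 2515 with COLCA2 guides 1 and 2, and 3543 with the POU2F3 guide. FOSL2 thus took the larger part of the added level with the COLCA2 guides, where FOS itself was below the control, and both contributed with the POU2F3 guide.

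In the JUN family JUND was the most abundant member per kilobase in every library. It was 62.6% of the summed JUN-family level in the control, 65.2% and 63.7% with COLCA2 guides 1 and 2, and 61.7% with the POU2F3 guide. JUN made up 23.3% in the control and between 14.7% and 16.2% in the others, while JUNB made up 14.1% and between 20.1% and 22.1%. The summed JUN-family level per kilobase was 3929 in the control and 4574, 4706 and 5063 with COLCA2 guide 1, COLCA2 guide 2 and the POU2F3 guide. The ratio of the summed FOS-family to the summed JUN-family level was 0.387 in the control, 0.502 and 0.535 with the COLCA2 guides and 0.700 with the POU2F3 guide. Transcript levels per kilobase depend on the transcript taken for each gene and say nothing of protein.

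**Figure D3:**
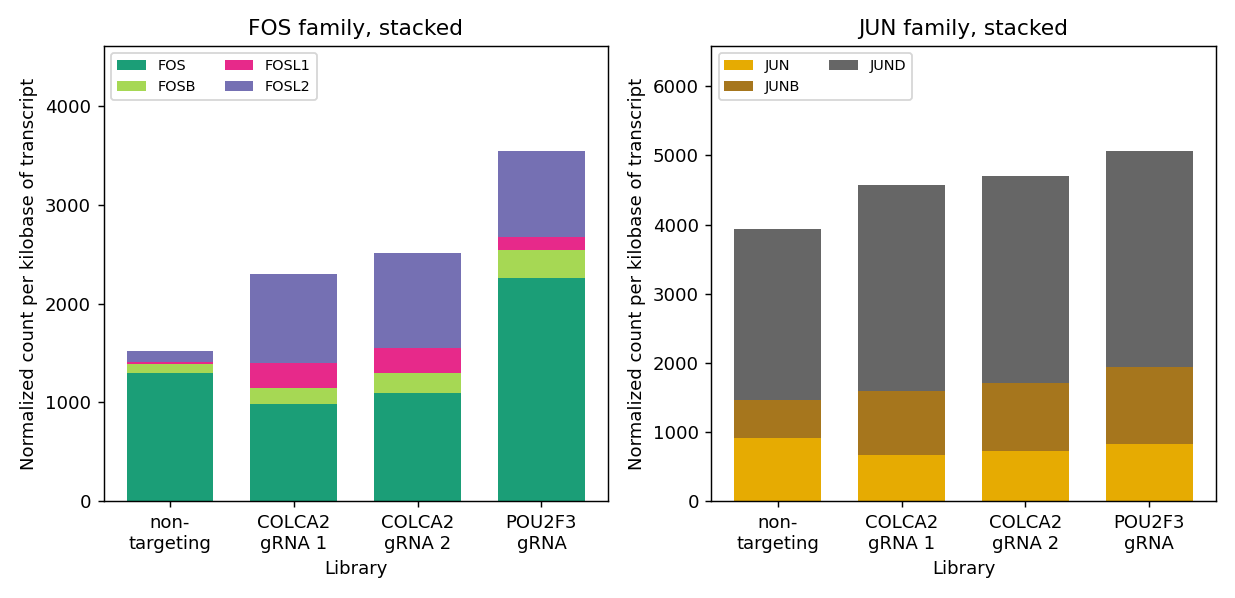
Stacked normalized counts per kilobase of the longest coding transcript for the FOS family (left) and the JUN family (right) in each of the 4 libraries; each bar is 1 library and starts at 0. FOSL2 is 7.64% of the FOS-family level in the control and 24.5% or more in the other 3, while JUND is between 61.7% and 65.2% of the JUN family.

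Other bZIP genes, most of which can pair with the members, mostly lay near the control. Of 30 listed genes 28 passed the minimum, 4 were at least 2-fold higher in all 3 libraries, 1 was lower and 23 were within 2-fold in every library, where 4.89% and 1.5% of all genes were higher and lower in all 3. Their median log2 ratio was 0.21 and 0.27 with COLCA2 guides 1 and 2, and 0.21 with the POU2F3 guide. MAF, a large MAF protein with an activation domain, stood at 189 in the control, 997 and 1242 with COLCA2 guides 1 and 2, and 1463 with the POU2F3 guide. CEBPB, a factor of inflammatory and stress responses, stood at 928, 3592, 3808 and 3464 in the same order. The other higher genes were CEBPD and CREB5, with log2 ratios from 1.55 to 1.83.

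BATF3, a JUN partner related to BATF, was the lower one. It stood at 1493 in the control, 599 and 495 with COLCA2 guides 1 and 2, and 241 with the POU2F3 guide. Its mean log2 ratio with the COLCA2 guides was -1.45 ± 0.19 (SD, n = 2), against -2.63 with the POU2F3 guide. The POU2F3 guide library was also at least 2-fold below both COLCA2 libraries for BATF3.

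The kinases and ternary complex factors upstream of AP-1 differed little. All 32 listed genes passed the minimum and every one was within 2-fold of the control in each of the 3 libraries, as most genes were. In single libraries between 6.44% and 7.25% of all genes were at least 2-fold higher and between 3.05% and 3.64% lower. The medians of the 32 were 0.037, 0.067 and 0.073 with COLCA2 guide 1, COLCA2 guide 2 and the POU2F3 guide. Kinase transcripts do not report kinase activity. Of 16 feedback inhibitors of the MAP kinases, 2 were at least 2-fold higher and 1 lower in all 3 libraries, where 4.89% and 1.5% of all genes were. With both COLCA2 guides 3 were higher and 2 lower, where 5.79% and 2.02% of all genes were. With the POU2F3 guide 2 were higher and 2 lower, where 6.73% and 3.05% of all genes were. DUSP10, a phosphatase of JNK and p38, stood at 195 in the control, 652 and 695 with COLCA2 guides 1 and 2, and 682 with the POU2F3 guide. DUSP5, a nuclear ERK phosphatase, had log2 ratios of 1.58, 1.67 and 1.26 in that order of the 3 libraries. SPRY1, an inhibitor of receptor tyrosine kinase signalling, was lower, at -1.22, -1.38 and -1.42. DUSP8 and DUSP6 passed 2-fold with the COLCA2 guides only, DUSP8 at 1.28, 1.74 and 0.97 and DUSP6 at -1.15, -1.22 and -0.82. SPRED3 passed it with the POU2F3 guide only, at -0.080, -0.25 and -1.32.

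Other immediate-early genes were higher more often. The list of 30 genes was chosen with earlier results of these data known, and 28 passed the minimum. Of these, 13 were at least 2-fold higher in all 3 libraries and none was lower in all 3, where 4.89% and 1.5% of all genes were. Another 8 were within 2-fold in every library. The median log2 ratio was 1.02 and 1.15 with COLCA2 guides 1 and 2, and 1.21 with the POU2F3 guide. CCN1, a secreted matrix protein induced by serum and also by YAP, stood at 3202 in the control, 18378.5 and 21551 with COLCA2 guides 1 and 2, and 20909 with the POU2F3 guide. GADD45B, a stress-induced regulator of MAP kinase signalling, had log2 ratios of 2.67, 2.65 and 2.34.

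Genes known from general knowledge as AP-1 targets made up another list. Of 35 listed genes, chosen with earlier results of these data known, 26 passed the minimum. Of these, 15 were at least 2-fold higher in all 3 libraries and none was lower in all 3, where 4.89% and 1.5% of all genes were. NTS, under the minimum, had 47 reads in the control and 9, 12 and 13 with COLCA2 guide 1, COLCA2 guide 2 and the POU2F3 guide. Also under it, IVL had 3 reads in the control and 18, 21 and 9 in that order, and MMP10 had 0 and 6, 18 and 13. The median log2 ratio of the 26 was 2.23 and 2.26 with COLCA2 guides 1 and 2, and 1.76 with the POU2F3 guide. MMP1 and IL6 had 0 and 2 reads in the control. Set at their bound against 3 reads they still lay above the median, so this could not have moved it. GJA1, a gap junction protein, had log2 ratios of 3.62, 4.16 and 3.75. Many of these genes also answer to other factors, and whether AP-1 proteins bound them was not measured.

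Markers of other cells and states were read beside these lists. Of 6 fibroblast markers 5 passed the minimum and 3 were at least 2-fold higher in all 3 libraries, where 4.89% of all genes were. The summed normalized count of the 6 was 1267 in the control, 2076 and 1772 with COLCA2 guides 1 and 2, and 1585 with the POU2F3 guide. The 5 past the minimum had median log2 ratios of 2.97 and 2.34 with COLCA2 guides 1 and 2, and 1.76 with the POU2F3 guide. COL3A1 stood at 47.7 in the control and between 317 and 412 in the others, LUM at 14.3 and between 123 and 233, and PDGFRB at 22.9 and between 79.7 and 187. COL1A2, a defining fibroblast gene, had between 11 and 23 reads, and COL1A1 stood at 1136 in the control and between 1002 and 1186 in the others. Of the 4 epithelial markers, 3 were at least 2-fold higher in all 3 libraries, where the same 4.89% of all genes were. The summed level of the 4 was 12082 in the control and 25820 to 37107 in the others. Summed leukocyte markers ranged from 60.1 to 98.4, endothelial from 41.5 to 65.9 and neuroendocrine from 90.6 to 198, each highest in the control. The part of these genes in the results was not tested. Heat shock and unfolded protein genes lay near the control: 1 of 17 past the minimum (CRYAB) was at least 2-fold higher in all 3 libraries, where 4.89% of all genes were. Their medians were 0.20, 0.11 and -0.071. The 14 reference genes were all within 2-fold, as most genes were. The reference medians were 0.27, 0.30 and 0.12, the first pair being close to the log2 ratios of JUND.

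**Figure D4:**
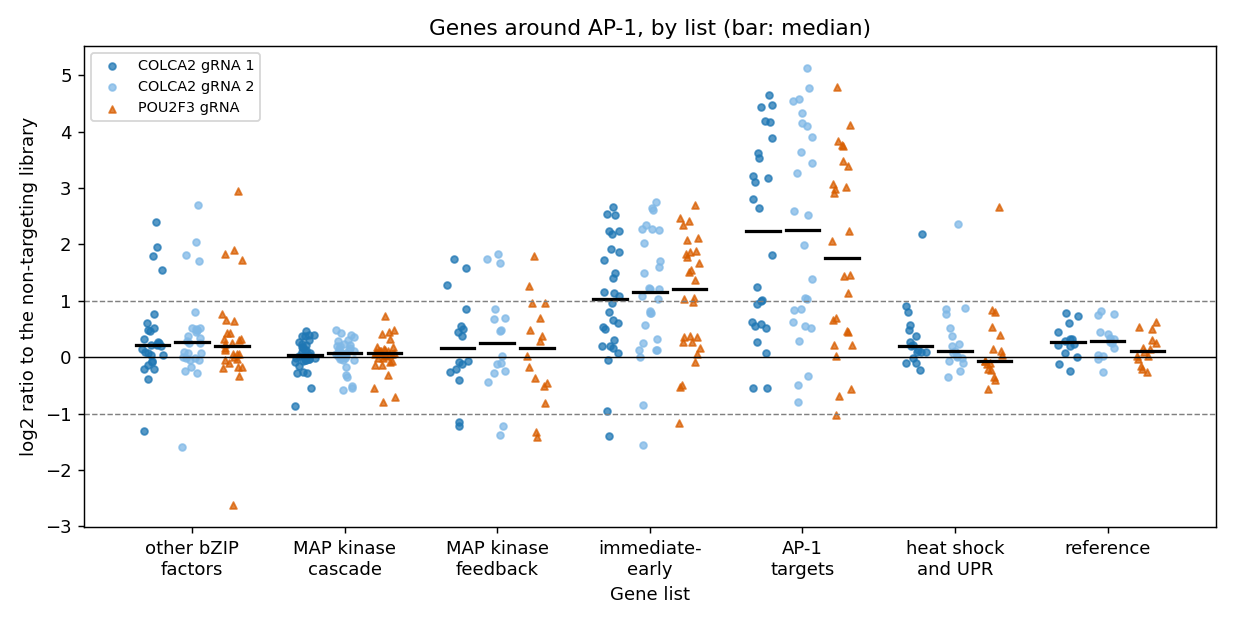
Log2 ratio to the control of each gene past the minimum in 7 lists, with COLCA2 guides 1 and 2 (dark and light circles) and the POU2F3 guide (triangles); points are genes, black bars are medians and dashed lines mark 2-fold. The AP-1 target list has medians of 1.76 to 2.26 and the immediate-early list 1.02 to 1.21, while the MAP kinase cascade has medians of at most 0.073.

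The genes whose pattern over the 4 libraries was most like that of FOSL1, FOSL2 and MAFF were found as the smallest Euclidean distance between log2 values centred on each gene's mean, among 12158 other genes with a mean of at least 100. With 4 points that share 1 control this is only a description. Nearest to FOSL2 was GRHL3, a Grainyhead factor of epithelial barrier formation, at a distance of 0.035, followed by NRXN3 (0.13) and STAC2 (0.18). GRHL3 stood at 62.1 in the control, 471 and 519 with COLCA2 guides 1 and 2, and 461 with the POU2F3 guide. Nearest to FOSL1 were NECTIN4 (0.10), an adhesion protein, IL32 (0.13) and AKR1C1 (0.14), the last with near-identical copies that make its count uncertain. Nearest to MAFF were PDP1 (0.061), DCBLD1 (0.078) and LACTB (0.085).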

How the data were processed

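Per the submitters' processing notes, the authors used Salmon and DESeq2 with genome build hg38; versions and roles are not given in the sources used here. The signal values deposited by the authors are linear normalized counts for each gene and library, per the file headers. In each library 100% of them were whole multiples of 1 step (tolerance 0.001 reads), so whole reads were recovered with 1 factor per library. Depth was 21587741 to 29632382 reads.

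The 38145 rows were summed by symbol. Ratios used log2(value + 1), and 2-fold differences were counted without a test. edgeR 4.0.16 (TMM, 3 groups) was an alternative, and scripts were tested on simulated data. Every member is named. Of each list the 2 furthest higher and 2 furthest lower genes past 2-fold in all 3 libraries and reaching 100 are named. A few others were chosen after their values were seen (CEBPD, CREB5, DUSP6, DUSP8, SPRED3, MMP1, MMP10, IVL, NTS, IL6, GADD45A, SIK1, HOOK2 and markers). Some listed genes are not reported here by name. Members and lists were chosen with earlier results of these data known. Positions come from GENCODE release 29.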

Additional observations from a re-analysis of the deposited data

Results flagged for a closer look

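FOS differed in opposite directions with the targets, lying below the control level with both COLCA2 guides and above it with the POU2F3 guide. The POU2F3 guide library exceeded the mean of the COLCA2 guides by 1.12 on the log2 scale, and the edgeR test of that difference gave an adjusted p of 0.0147 with FOS higher than in both COLCA2 libraries. Against the control, edgeR called FOS with the POU2F3 guide (log2 fold change 0.82, adjusted p = 0.00551) but not with the COLCA2 guides (log2 fold change -0.31, adjusted p = 0.0784, lower with both guides). The POU2F3 group held 1 library, so whether another culture would show the same was not tested.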

How the results depend on the processing

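No paired analysis was possible because the control and the POU2F3 group have 1 library each. The 3 other scalings (TMM, upper quartile and equal totals), the pseudocounts of 0.5 and 10, the minimum of 100 and the use of single rows left each member count within 1.5 times and moved no median by more than 0.069, the SD of the 2 guides' medians. Of 234 values of single members under these alternatives and without either guide, none changed sign and 9 moved beyond their interval or guide spread. Equal totals gave 4 members for the POU2F3 guide in place of 5, JUNB being lost, and moved the median of all genes to -0.038 and -0.078 for POU2F3 and COLCA2.

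Without an expression minimum BATF entered at a ratio of 0, and the median was 0.91 with the POU2F3 guide and 0.70 with the COLCA2 guides. A 1.5-fold threshold gave 5 members with both COLCA2 guides, and 2 between the targets (FOS higher and FOSL1 lower). A 4-fold threshold gave 2 with the POU2F3 guide and 0 between the targets. The edgeR test gave 7 members for COLCA2. Leaving out a guide gave 3 to 4 members and medians of 0.73 to 0.83. Limits are the single control, the single POU2F3 library and the 1 residual degree of freedom.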

Other observations

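The EGR genes, zinc finger immediate-early factors induced by the same signals as FOS, were named after their values were seen. EGR1 stood at 15532 in the control, 5864 and 5272 with COLCA2 guides 1 and 2 and 11067 with the POU2F3 guide. It was thus at least 2-fold lower with both COLCA2 guides, where 2.02% of all genes were. Like FOS, EGR1 was higher with the POU2F3 guide than in either COLCA2 library. EGR2 stood at 56.3, 111, 121 and 209.8 in the same order. EGR3 had 18 reads in the control, 24 and 16 with COLCA2 guides 1 and 2 and 68 with the POU2F3 guide. Among the 28 other immediate-early genes past the minimum, only EGR3 was at least 2-fold apart from both COLCA2 libraries. Over all genes 0.442% were at least 2-fold higher and 0.924% lower. Some genes of the list went the other way. GADD45A stood at 6618 with the POU2F3 guide, beside 9076 and 9156 with COLCA2 guides 1 and 2. For SIK1 the level was 1498, beside 2482 and 2184.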
